A study of Mus musculus with 2 samples.

Results

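Integrin αIIbβ3 and the GPIb-IX-V complex are the main adhesion receptors of platelets, and 4 of their genes, Itgb3, Itga2b, Gp1ba and Gp9, were examined for binding of the transcription factor subunit NF-E2 p45 in mouse megakaryocytes. The genes were taken with 1 window each on mouse build mm9, and every deposited p45 peak that overlapped a window by at least 1 bp was kept. That gave 2 peaks out of 1651 in the whole list, 1 in the window of Itgb3 and 1 in the window of Gp9, and none in the windows of Itga2b and Gp1ba. The genes and windows were chosen on the deposited peak positions and scores, which were known beforehand, so the peaks, their scores and their ranks are a description and carry no test.

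NF-E2 is a dimer of p45, which is found mainly in blood cells, and a small Maf protein. It is known as a regulator of the late steps of megakaryocyte maturation and platelet release. Integrin αIIb, the product of Itga2b, pairs with integrin β3, the product of Itgb3, to form the fibrinogen receptor through which platelets aggregate. Integrin β3 also pairs with integrin αv, whose expression is not limited to this lineage, whereas αIIb is largely restricted to the megakaryocyte lineage. GPIbα, from Gp1ba, carries the binding site for von Willebrand factor, and GPIX, from Gp9, is a small subunit needed for the complex to reach the cell surface.

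The assay was ChIP-seq, in which DNA bound to p45 is precipitated with an antibody and sequenced. Liver cells of wild-type C57BL6 fetuses at embryonic day 13.5 were cultured with 50 ng/ml recombinant human thrombopoietin, the growth factor that drives megakaryocyte formation, and taken on day 3. The series has 1 library made with an antibody against p45 and 1 input library made without antibody from cells of the same kind, and neither has a replicate. The sources used here do not say how many fetuses were combined, and the labelled cell type could not be checked against marker genes because the file used here lists peaks and no expression. Each peak has a score by the authors, from 50.04 to 3100 with a median of 76.44. The score was used only within the list, to rank peaks and to set limits at 100, 500 or the median. The number of reads behind a peak is unknown, so no peak has an error.

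Among the integrin genes, Itgb3 had 1 of the highest-scoring p45 peaks of the list and Itga2b had none in its window. The Itgb3 peak lay at chr11:104472829-104473517 (mm9), measured 689 bp and scored 3100. It shared rank 1 to 2 of 1651 with a peak elsewhere on chromosome 11, and the next score down was 3053.66. Whether scores were capped at 3100 is not known. Among the 157 peaks of chromosome 11 the median score was 76.44, the same as in the whole list. The Itgb3 peak was the single peak in the 80 kb window, chr11:104460000-104540000, and covered 689 bp of it. Its start lay 12.8 kb after the start of the window and its end 66.5 kb before the end of it, so its centre was at 16.5% of the window's length. Whether it falls in an exon, an intron or before the start of Itgb3 was not analysed here, since no annotation of mm9 was used.

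Other stretches of chromosome 11 give the background for these counts. When the chromosome was divided into tiles of 80 kb from its first to its last peak, 135 of 1477 tiles held a peak, or 9.14% (95% interval 7.72 to 10.7%, exact Clopper-Pearson). A peak with a score of at least 100 was found in 44 of these tiles, or 2.98%. The rule that chose Itgb3 used the same peaks, and nothing is read from that comparison.

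The length of the Itgb3 peak was ordinary. It stood at percentile 55.7 of all lengths, against a median of 648 bp. Of the 15 peaks with a score of at least 500, 10 were longer than the Itgb3 peak and 4 were shorter. The peak tied with it for the top score measured 724 bp, and the peak that followed, on chromosome 1, measured 1429 bp.

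A group of 6 lower-scoring peaks lay before the Itgb3 window on the same chromosome. The gap from each of them to the Itgb3 peak ran from 74.6 to 89.7 kb. The highest-scoring of them, at chr11:104395380-104396417, scored 198.22 over 1038 bp and ranked 108. The next, at chr11:104389350-104390037, scored 114.57 over 688 bp and ranked 359. The other 4 scored 68.92, 84.05, 90.96 and 90.96. On the other side of the Itgb3 peak the list was empty for 697 kb, up to a peak of score 70.14 and rank 958. Peaks near Itgb3 were thus all on the side of lower coordinates within 500 kb of the window, where 7 peaks lay in addition to the one inside. In the RefSeq gene order of build GRCm38.p6, the protein-coding genes next to Itgb3 are Myl4 and Cdc27 on the side of lower coordinates and Efcab13 on the other. Which of these genes the 6 peaks lie in was not analysed here.

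**Figure D1:**
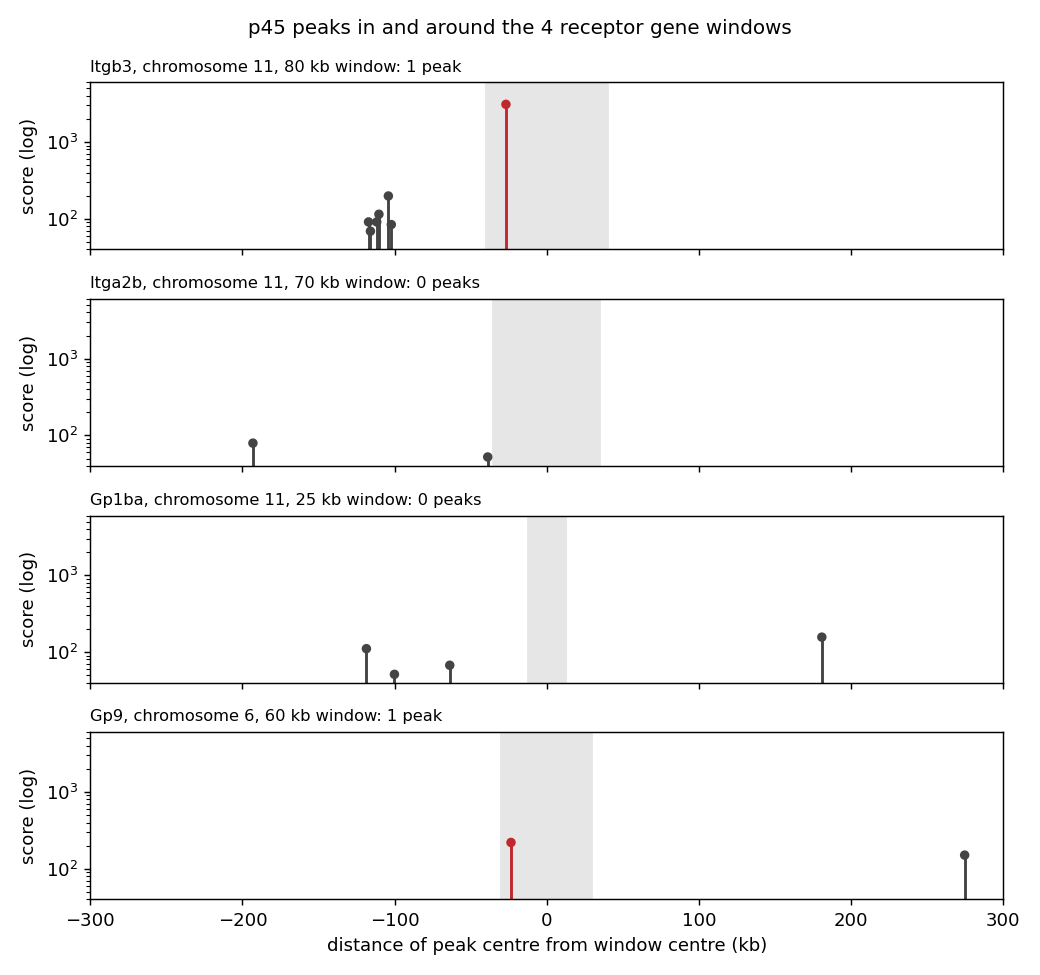
Deposited p45 peaks within 300 kb of the centre of each gene's window, with distance in kb on the x axis and the authors' score on a log y axis; grey bands are the windows, red points the peaks inside them, dark points the peaks outside, and vertical lines only lead to the points. The Itgb3 peak at 3100 and the Gp9 peak at 219.74 lie inside their bands, and the bands of Itga2b and Gp1ba are empty.

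The window of Itga2b, chr11:102290000-102360000, held no peak in 70 kb. The nearest peak lay just outside it, 3.43 kb before the window's start, at chr11:102285847-102286573. That peak measured 727 bp and scored 52.39, which is rank 1561 of 1651 and percentile 5.48, close to the lowest score in the list. The next peaks on that side scored 79.35 at a distance of 157.8 kb and 56.15 at 475.2 kb. On the side of higher coordinates the list was empty for 1767 kb. Empty windows were the common case on this chromosome, since 138 of 1688 tiles of 70 kb held a peak, or 8.18% (95% interval 6.91 to 9.59%), and 2.61% held one with a score of at least 100. An empty tile had its nearest peak at a median distance of 396 kb (quartiles 133 and 1090 kb).

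The Itga2b and Itgb3 windows, for the 2 chains of the same receptor, are 2.1 Mb apart on chromosome 11. The list held 7 peaks between them, with scores from 66.84 to 198.22, and 6 of these were the group before Itgb3. In the RefSeq gene order of GRCm38.p6, Itga2b stands between Fam171a2 and Gpatch8. A missing peak means that none was called there, at a lowest listed score of 50.04 for the whole list. Binding below the caller's limit was not measured by this list.

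Of the GPIb-IX-V genes, Gp9 had a peak of above-median score in its window and Gp1ba had none. The Gp9 peak lay at chr6:87706204-87706794 (mm9), measured 591 bp and scored 219.74. It ranked 93 of 1651, at percentile 94.4, and was the seventh highest of the 93 peaks on chromosome 6, where the median score was 76.44 and the highest 808.12. In the ranking it stood between a peak of 221.81 on chromosome 2 and one of 215.32 on chromosome 10. The Itgb3 peak was among the 92 peaks with higher scores. Both peaks exceeded a score of 100, which 460 peaks, or 27.9% of the list, did.

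The Gp9 peak lay near the lower edge of its window. Its start was 6.2 kb after the start of the 60 kb window, chr6:87700000-87760000, and its end 53.2 kb before the end, which puts its centre at 10.8% of the length. It was also alone. The nearest peak before it was 2832 kb away with a score of 204.47, and the nearest after it was 297 kb away with a score of 150.35. Peaks of 54.2 and 61.37 followed within 500 kb of the window. The median distance of a peak on the autosomes and chromosome X to its nearest neighbour was 289 kb, so the spacing of the Gp9 peak was close to the middle of the list, while the Itgb3 peak had a neighbour at 74.6 kb. On chromosome 6, 89 of 2431 tiles of 60 kb held a peak, or 3.66% (95% interval 2.95 to 4.49%), and 1.11% held one with a score of at least 100. The presence of the Gp9 peak was used to choose the gene and is not read against that share. In the gene order of GRCm38.p6, Gp9 lies between Efcc1 and Rab43. Whether the peak is nearer to Gp9 or to a neighbour was not analysed here.

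**Figure D2:**
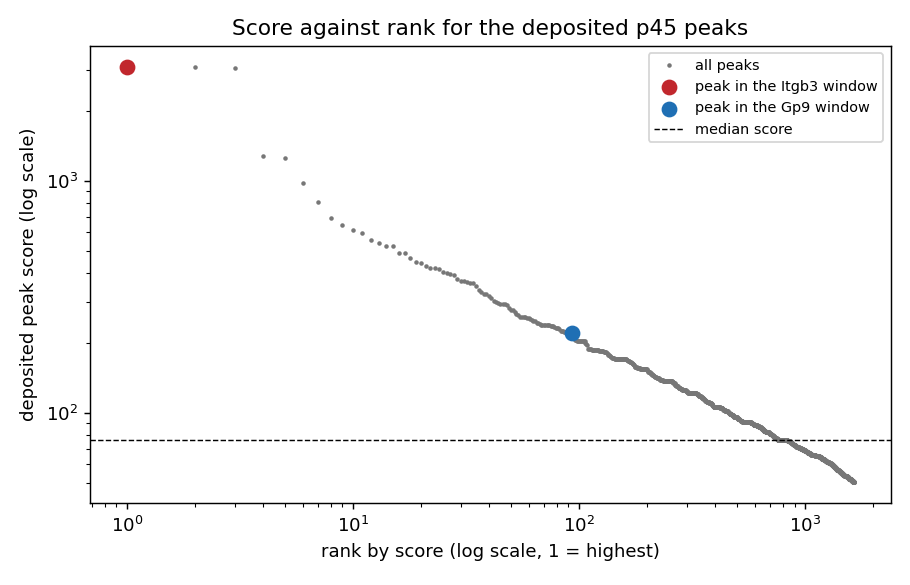
Score of each deposited p45 peak (y axis, log scale) against its rank by score (x axis, log scale), with the peaks of the Itgb3 and Gp9 windows in colour and the median score of 76.44 as a dashed line. The Itgb3 peak stands at the top with a tie at 3100, and the Gp9 peak at rank 93 is above the median.

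The window of Gp1ba, chr11:70445000-70470000, is the shortest, at 25 kb, and held no peak. The nearest peak before it, 50.6 kb away at chr11:70393117-70394380, scored 67.31 over 1264 bp and ranked 1032. Before that came peaks of 51.26 at 87.05 kb, 110.75 at 105.8 kb and 59.86 at 314.8 kb. The nearest peak after the window, 167.8 kb away at chr11:70637807-70638786, scored 156.53 over 980 bp and ranked 181. On mm9, Gp1ba thus had peaks on both sides within 500 kb and none closer than 50.6 kb. On chromosome 11, 149 of 4726 tiles of 25 kb held a peak, or 3.15% (95% interval 2.67 to 3.69%), and 0.952% held one with a score of at least 100. An empty tile had its nearest peak at a median of 383 kb (quartiles 131 and 1050 kb). An absent peak in a window of this length is therefore the usual state, and it does not set Gp1ba apart. This absence is stated for mm9, on which the peak of score 156.53 lies 167.8 kb after the window. If the same coordinates were read as GRCm38.p6, the peak of score 156.53 would end 335 bp before the listed start of Gp1ba, while the Itgb3 peak would lie 134.5 kb and the Gp9 peak 69.3 kb outside their genes. The submitters' processing notes name mm9, which was kept. A count of peak centres within 1 kb of a GRCm38.p6 transcript start gave 67 of 1651 peaks as listed. When all peaks were moved by 40 other distances of up to 1000 kb in steps of 50 kb, it gave 38 to 64 (median 52.5). Nothing is read from the moved counts being below 67. No mm9 starts were counted in the same way, so the count could not compare the builds, whatever it gave. Peak positions here are all on mm9, the build the submitters name. In the gene order of GRCm38.p6, Gp1ba lies between 4930544D05Rik and Slc25a11, with Chrne and Mink1 before it.

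The lengths of the peaks in the Itgb3 and Gp9 windows both lay above a crowded range. Of the 1651 peaks, 434 measured from 540 to under 590 bp, a range set in earlier work with the lengths in view. The Gp9 peak, at 591 bp, lay just above that range, and the Itgb3 peak, at 689 bp, further above it. Of the 6 peaks before Itgb3, 3 were inside the range, at 556, 557 and 559 bp, and the highest-scoring of the 6 was not. What sets this range of lengths was not tested.

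**Figure D3:**
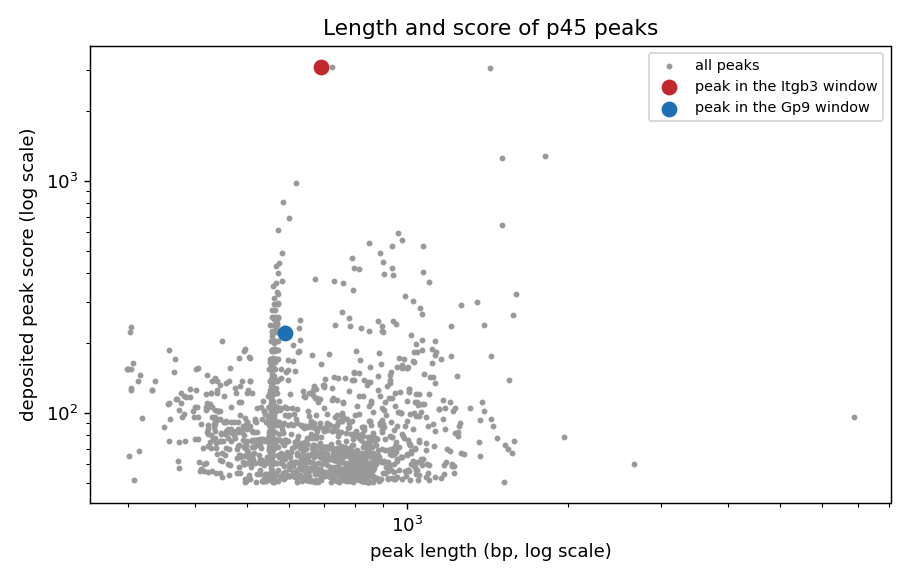
Length in bp (x axis, log scale) and authors' score (y axis, log scale) of the deposited p45 peaks, with the peaks of the Itgb3 and Gp9 windows in colour. The Itgb3 peak of 689 bp sits at the top of the plot at a middling length, and the Gp9 peak of 591 bp sits beside the dense column of peaks between 540 and 590 bp.

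The start regions of these genes are shown because 2 of them had no p45 peak in their window. NF-E2 binds an extended AP-1-like sequence, called the NF-E2 sequence here, whose core was searched as TGANTCA, and the start regions of 3 of the 4 genes were found in the RefSeq promoter table of build GRCm38.p6. These coordinates are on GRCm38.p6 and not on mm9, the build given for the peaks, so the distances between them are not those in the genome. The 250 bases before the listed transcript start follow, 5′ to 3′ on the gene's strand, with capitals marking matches to GATAA, the core of GATA sites, and TGTGGT, a RUNX sequence, on either strand. The sequences lie at chr11:102469884-102470133 on the minus strand for Itga2b, chr11:70638872-70639121 on the plus strand for Gp1ba and chr6:87777820-87778069 on the plus strand for Gp9. The listed start of Gp9 lies inside the span of the gene in the RefSeq gene table, so other Gp9 transcripts begin before it.
Itga2b: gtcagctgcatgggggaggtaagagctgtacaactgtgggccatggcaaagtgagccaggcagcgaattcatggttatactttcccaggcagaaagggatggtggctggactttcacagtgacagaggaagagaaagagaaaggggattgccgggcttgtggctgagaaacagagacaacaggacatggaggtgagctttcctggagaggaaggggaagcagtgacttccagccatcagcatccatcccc
Gp1ba: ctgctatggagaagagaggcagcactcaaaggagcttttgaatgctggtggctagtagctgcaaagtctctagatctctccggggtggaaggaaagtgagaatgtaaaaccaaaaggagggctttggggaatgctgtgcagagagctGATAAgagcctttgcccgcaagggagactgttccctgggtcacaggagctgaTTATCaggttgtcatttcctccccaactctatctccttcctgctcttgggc
Gp9: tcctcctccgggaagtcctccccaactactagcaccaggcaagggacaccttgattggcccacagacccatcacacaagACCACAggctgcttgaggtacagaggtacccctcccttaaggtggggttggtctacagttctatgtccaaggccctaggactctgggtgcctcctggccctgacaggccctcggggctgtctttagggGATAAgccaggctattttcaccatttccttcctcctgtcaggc

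None of the 3 start regions held the NF-E2 sequence or its shorter core TGANTCA in the whole 300 bases of the table, from 250 before to 50 after the start. Over all 32851 start regions of the table, 0.423% held the NF-E2 sequence and 7.81% held TGANTCA, which is part of the longer sequence and so counts it too. With such shares, a lack of matches in 3 regions is the usual case and says only that these letters are not in these windows. The sequence AGATAA, bound by GATA factors, was in none of the 3 and in 11.2% of all regions. The shorter GATAA, added after the sequences were seen and contained in AGATAA, was in Gp1ba and Gp9 and in 25.4% of all regions. In Gp1ba it began 103 bases before the start on the gene's strand and 51 bases before it on the other strand, and in Gp9 43 bases before the start. TGTGGT was in Gp9, 171 bases before the start on the other strand, and in 16.8% of all regions. Itga2b held none of these 5 sequences.

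Another 16 platelet surface receptor genes gave a view of the same sequences beyond the 4 genes. Of these, 13 were in the promoter table. The NF-E2 sequence was in none of the 13 start regions. TGANTCA was in 1, that of Gp1bb, the gene of the small chain linked to GPIbα, 77 bases before the start. The letters matched there were TGAATCA, since N was allowed to be any base. AGATAA was in 4, those of Gp5, which encodes the GPV subunit of the same complex, of Gp6, the collagen receptor, and of Clec1b and F2rl3, which encode the podoplanin receptor CLEC-2 and a thrombin receptor. TGTGGT was in none of the 13. A match is a description of the sequence and not a bound site. p45 peaks at these 16 genes were not analysed here.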

How the data were processed

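The deposited file used here lists the p45 peaks of 1 library, called by the authors with MACS, per the peak names in the file, with coordinates on mm9, per the submitters' processing notes. It gives each peak's position and name and a score by the authors. The sources used here do not give the caller's version, its settings or the aligner, or say whether scores were capped at 3100. The build rests on those notes. A count of peaks near GRCm38.p6 transcript starts, made after the data were seen, had no mm9 count beside it and could not settle the build. The input library was not analysed here. Starts were read as zero-based and printed 1-based.

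Peaks overlapping a window by at least 1 bp were counted and ranked by score, with the mean rank for ties in percentiles. Background shares come from tiles of the window's length on the same chromosome, with exact Clopper-Pearson 95% intervals that cover counting error only. Motifs were matched exactly on both strands. All 4 genes are described with every peak in their window, and other receptor genes are counted. The members, windows and lists were chosen with earlier results of these data known. Counting was tested on simulated data with planted peaks. Tables were made in Python 3.11.15 with pandas 2.3.3 and NumPy 2.4.6, intervals with SciPy 1.17.1 and plots with matplotlib 3.10.9. Alternatives on threshold, overlap, window size, start convention, ties and tiles were tried. Position relative to exons and start sites, motifs in peaks and peaks at the other receptor genes need mm9 sequence or annotation and were not run.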

Additional observations from a re-analysis of the deposited data

How the results depend on the processing

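The counts of 1, 0, 0 and 1 peaks in the windows of Itgb3, Itga2b, Gp1ba and Gp9 were the same with scores at or above the median, scores of at least 100, the whole or at least 50% of the peak inside, and starts read as 1-based. Widening each window by 20 kb on both sides changed the count for Itga2b to 1, the peak of score 52.39, and no other. The percentile of the Itgb3 peak, 99.94, was 99.36 among peaks of chromosome 11. That of the Gp9 peak, 94.4, was 93.01 among peaks of chromosome 6 and 88.83 among peaks at or above the median. The shares of tiles fell with stricter scores by construction. At or above the median score they were 4.81% (80 kb), 4.21% (70 kb), 1.59% (25 kb) and 1.93% (60 kb, chromosome 6), and at scores of at least 100 they were 2.98%, 2.61%, 0.952% and 1.11%. On all autosomes the first 3 were 5.11%, 4.52% and 1.7%. GATAA in place of AGATAA, added after the sequences were seen, raised the members' start regions with a match from 0 to 2. Motifs in peaks were not run. No paired analysis was possible because each group has 1 library. With no tag counts and no replicate, an absent peak cannot be told apart from one under the caller's limit.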
